A study of Mus musculus with 30 samples.

Results

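Cytosolic ribosomal protein genes encode the protein subunits of the ribosome that translates messenger RNA in the cytosol. They were followed here through testis cells of young mice that had been enriched for spermatogonia, the germ cells from which sperm production starts. Members were all rows of the deposited expression table whose gene symbol starts with Rpl or Rps and a digit, or is Rplp0, Rplp1 or Rplp2, without the Rps6k kinases and without pseudogene symbols that contain "-ps". The rule, which uses no measured value, found 85 of 20889 rows. Of these, 46 are core subunits of the large ribosomal subunit, among them the 3 proteins of its P-stalk, and 30 are core subunits of the small one. Another 8 are paralogs of a core subunit (Rpl3l, Rpl7l1, Rpl10l, Rpl22l1, Rpl36al, Rpl39l, Rps4y2 and Rps27l), and 1, Rps19bp1, encodes a protein that binds subunit S19 and is no subunit. The reference tables hold 83 of the 85 as current symbols. They give Rps3a as Rps3a1, and Rps4y2 as Rps4l, which they class as a transcribed pseudogene. Rpsa, Fau and Gnb2l1 encode ribosomal proteins or a ribosome-bound protein under other symbols and were kept apart.

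The RNA came from testes of C57BL/6 mice aged 0, 7, 12 or 14 days after birth (P0, P7, P12 and P14) and was sequenced. The P7, P12 and P14 KIT groups were enriched with magnetic beads carrying an antibody to CD117, the KIT receptor of differentiating spermatogonia, and the P0, P7, P12 and P14 THY1 groups with an antibody to CD90.2, the THY1 surface protein used to enrich undifferentiated spermatogonia. The P0 OCT4-GFP, P7 OCT4-GFP and P7 ID4-GFP groups were isolated by flow cytometry for GFP driven from Oct4 (gene symbol Pou5f1) or Id4 reporters, genes active in early germ cells. A further library is labelled P7 VASA THY1, while the protocol names VASA-GFP cells only at P0, so its age is uncertain. The table holds 11 columns of FPKM, a fragment count scaled to transcript length and to sequencing depth, with 1 value per group. Both KIT and THY1 at P7 and P12, and THY1 at P0, have 2 libraries behind their column, and the other 6 columns have 1 library each. No difference therefore has a replicate check, no test between groups was possible, and all values describe these libraries alone. Differences between columns were taken on the log2(FPKM + 1) scale, on which folds of low genes come out too small. A member was counted as higher or lower at 2-fold or more with at least 5 FPKM in the higher column, and the share of all genes counted in the same way is given beside it. Where the highest or lowest differences of a comparison are named, only members with at least 5 FPKM in the higher column are ranked.

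The labelled cell type was checked first. Of 6 germ cell markers, Ddx4, Dazl, Tex101, Mael and Sycp3 were at 42.8 FPKM or more in every column and Dppa3 was at 0.0962 to 2.07 FPKM. Their summed level was lowest in P0 THY1, at 734 FPKM, and highest in P14 KIT, at 2774 FPKM. Kit stood at 78.9, 72.5 and 103 FPKM in P7, P12 and P14 KIT, against 21.3, 15.4 and 24.1 FPKM in P7, P12 and P14 THY1. Thy1 stood at 0.592, 0.386 and 0.216 FPKM in those KIT columns and at 1.64, 1.17 and 1.20 FPKM in those THY1 columns, and was highest in P0 THY1, at 18.3 FPKM. Somatic markers were present as well. The summed level of 7 fibroblast markers was 6728 FPKM in P0 THY1 and 25.8 to 1326 FPKM in the other 10 columns, and that of 6 Leydig cell markers was 1100, 212 and 578 FPKM in P7, P12 and P14 KIT against 109, 66.9 and 148 FPKM in P7, P12 and P14 THY1. The 6 markers of pachytene spermatocytes and later cells summed to 2909 FPKM in P14 THY1, to 86.4 FPKM in P14 KIT and to at most 25.8 FPKM elsewhere. In such bulk samples, fewer cells of a type and less RNA per cell cannot be told apart.

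Nearly all ribosomal proteins occur as a single copy in each ribosome, and their genes are among the most highly transcribed in growing cells. Their messenger RNAs begin with a run of pyrimidines, the terminal oligopyrimidine (TOP) motif, through which mTOR signalling and the protein LARP1 control their translation and stability. Most core subunits are encoded on autosomes. A few lie on the X chromosome, which is silenced in male germ cells during meiosis, and mouse Rpl10l and Rpl39l are autosomal paralogs known for expression in testis germ cells.

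The listed levels of the core genes differed widely. The median over 11 columns was 1058 FPKM or more for 4 of the 76 core genes, 100 FPKM or more for 28, under 10 FPKM for 30 and under 1 FPKM for 10. Rplp1, an acidic protein of the stalk that recruits elongation factors, was highest with a median of 1434 FPKM and a range of 650 to 1983 FPKM. It was followed by the large subunit protein Rpl8, with a median of 1362 FPKM and a range of 716 to 1889 FPKM. The large subunit protein Rpl4 had a median of 1058 FPKM. These 3 had their lowest level in P12 KIT, as had Rplp0, the scaffold of the stalk, at 292 to 617 FPKM over the columns.

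At the other end, Rpl26, a large subunit protein, was listed at 0 in 6 of 11 columns and reached 3.67 FPKM in P7 VASA THY1. Rpl36a had a median of 0.279 FPKM, the small subunit protein Rps13 one of 0.448 FPKM, Rpl23a one of 0.487 FPKM and Rpl28 one of 0.489 FPKM. Low genes were in both subunits, 18 of the large and 12 of the small one. A processed pseudogene symbol ("-ps") of the same gene was in the reference tables for 27 of the 30 core genes under 10 FPKM and for 34 of the 46 others, with a median of 3 such symbols against 1. How the authors treated reads that map to several places is not given in the sources used here, and the part of pseudogene copies in the low values was not tested. Levels of the low genes are therefore uncertain. Counts of how many core genes were higher or lower are given over the 46 core genes with a mean of at least 10 FPKM, called abundant here, of which 28 belong to the large and 18 to the small subunit. Medians are over all 85 members, and counts at 2-fold or 1.5-fold are over members with 5 FPKM or more in the higher column, which include some of the low genes, such as Rpl35, Rps6 and Rpl11.

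**Figure D1:**
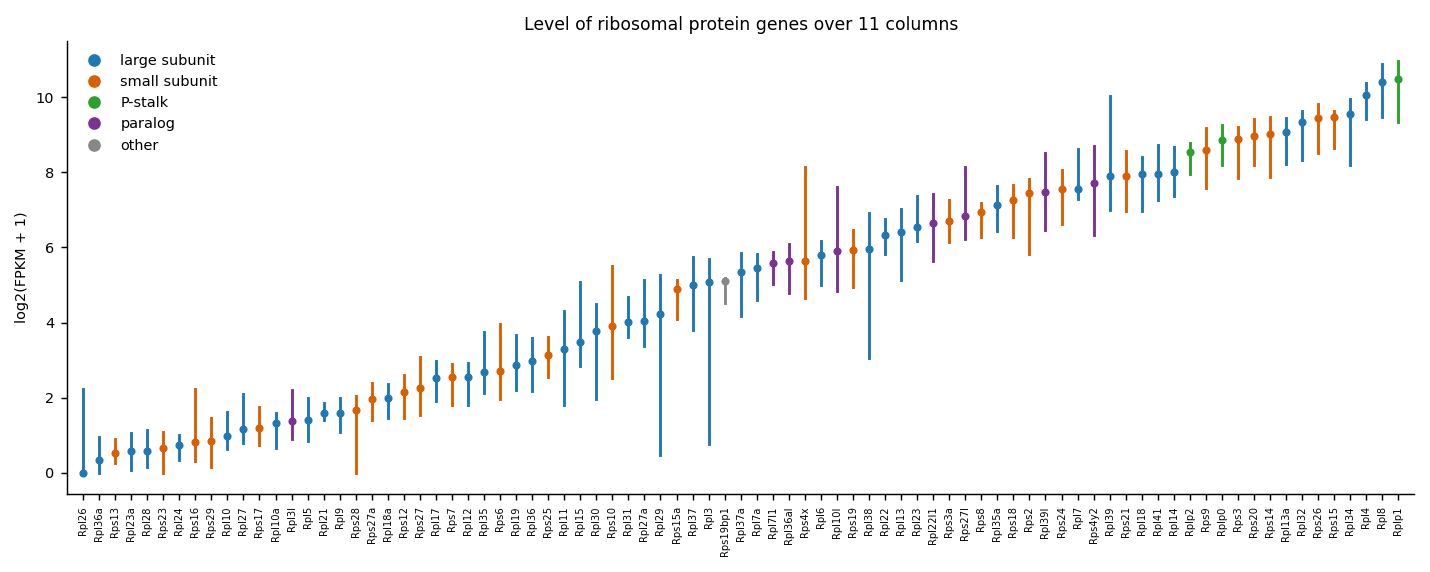
Level of 83 of the 85 genes on the log2(FPKM + 1) axis, ordered by the median over 11 columns; points are medians and lines run from the lowest to the highest column. Core genes spread from Rpl26, at a median of 0, to Rplp1, at 1434 FPKM, and Rpl3, Rpl29, Rps4x and Rpl38 have long lines.

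The summed level of the 85 genes was lowest in P12 KIT, at 8952 FPKM, and highest in P7 ID4-GFP, at 19746 FPKM. In KIT columns it stood at 16154 FPKM at P7, 8952 FPKM at P12 and 15368 FPKM at P14. In THY1 columns it stood at 18768 FPKM at P0, 18310 FPKM at P7, 12112 FPKM at P12 and 13638 FPKM at P14. Both selections thus had a lower sum at P12 than at P7, and the KIT column alone was back near its P7 level at P14. The remaining columns held 15857 FPKM in P0 OCT4-GFP, 18850 FPKM in P7 OCT4-GFP and 14184 FPKM in P7 VASA THY1.

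As a share of each column's total the 85 genes took 1.69% in P12 KIT, the lowest, and 4.93% in P7 ID4-GFP, the highest. One row moved these shares. Rmrp, the RNA of a ribonuclease that processes ribosomal RNA, was listed at 105178 to 255813 FPKM in 10 columns and at 0 in P7 ID4-GFP. Without Rmrp the shares ran from 2.54% in P12 KIT to 4.97% in P7 THY1, with P0 THY1 at 4.96%. With the highest rows of the table left out, P12 KIT was again lowest and the shares of P0 THY1 and P7 THY1 were 5.33% and 5.27%. Large subunit genes, stalk included, summed to 1.24 to 1.52 times the small subunit genes, with the lowest ratio in P7 OCT4-GFP and the highest in P0 THY1.

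Of the 46 abundant core genes, 33 had their lowest level in P12 KIT, as had 7.43% of all genes with a mean of 10 FPKM or more, and 9 had it in P7 VASA THY1, as had 3.33% of all such genes. The highest level fell in P7 ID4-GFP for 17 of the 46, in P0 THY1 for 10 and in P7 THY1 for 6, where 14.0%, 10.7% and 5.83% of all such genes had theirs. Between 15 and 21 of the 100 genes with the highest FPKM of each column were core ribosomal protein genes, 15 of them in P12 KIT and in P14 THY1 and 21 in P7 THY1.

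**Figure D2:**
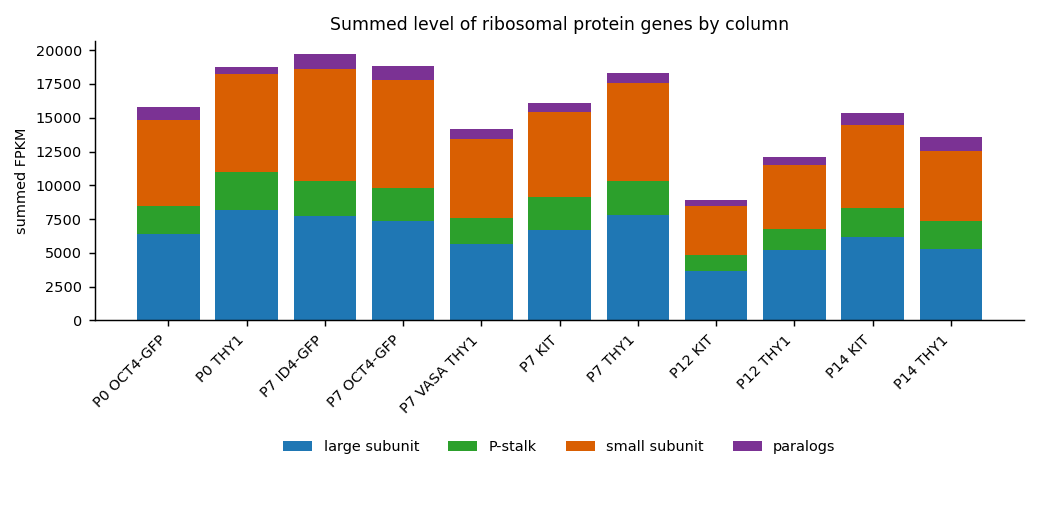
Summed FPKM of the large subunit, P-stalk, small subunit and paralog genes in each column, stacked (Rps19bp1 is not drawn). P12 KIT is lowest, at 8952 FPKM with Rps19bp1 included, and P7 ID4-GFP highest, at 19746 FPKM.

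The largest median difference of the 13 comparisons lay between P12 and P7 KIT cells. All 46 abundant core genes were lower in P12 KIT than in P7 KIT, where 51.2% of all genes with a mean of 10 FPKM or more were lower. The median difference of the 85 members was -0.64 on the log2(FPKM + 1) scale, against 0.01 over the 14200 genes kept at 1 FPKM or more in at least 2 columns. Among the 61 members with 5 FPKM or more in either column, 12 were 2-fold lower and 0 were 2-fold higher, where 4.07% and 5.83% of all genes passed those rules, and 41 were 1.5-fold lower against 13.6% of all genes. Rpl38, a large subunit protein that in mice is needed for normal translation of Hox messenger RNAs, had 7.32 FPKM in P12 KIT against 47.8 FPKM in P7 KIT, a log2 difference of -2.55. Rpl41, the smallest ribosomal protein, had 154 FPKM in P12 KIT against 420 FPKM in P7 KIT, a difference of -1.44, and Rps2, a small subunit protein near the entry of the messenger RNA, had 78.8 against 200 FPKM, a difference of -1.34. Rplp1 had 650 FPKM in P12 KIT and 1627 FPKM in P7 KIT. The other 8 past 2-fold were Rpl8, Rpl13, Rpl18, Rpl36, Rps3, Rps9, Rps14 and Rps19. Rps3 stood at 228 FPKM in P12 KIT against 476 FPKM in P7 KIT, and Rps19, the subunit most often mutated in human Diamond-Blackfan anaemia, at 29.7 against 62.4 FPKM. At the other extreme, among members with 5 FPKM or more in the higher column, Rpl35, with 5.43 against 3.39 FPKM, had a difference of 0.55, and Rpl31 and Rpl30 followed with -0.01 and -0.02. Markers of other cells differed between these columns too. The 6 Leydig cell markers were all 2-fold lower and summed to 212 FPKM in P12 KIT against 1100 FPKM in P7 KIT, and the 4 endothelial markers, all 2-fold lower as well, summed to 35.5 against 110 FPKM. The 7 fibroblast markers summed to 180 against 339 FPKM and the 7 Sertoli cell markers to 161 against 127 FPKM, and the part of these markers in the differences was not tested.

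From P12 to P14, KIT cells showed the reverse difference; both comparisons use the P12 KIT column, so they are not independent of each other. In P14 KIT 45 of the 46 abundant core genes were higher than in P12 KIT, where 51.9% of all genes with a mean of 10 FPKM or more were higher. The median difference of the 85 members was 0.58 on the log2(FPKM + 1) scale, against -0.09 over all kept genes. Of 62 members with 5 FPKM or more, 14 were 2-fold higher and 0 were 2-fold lower, where 5.52% and 11.2% of all genes passed, and 39 were 1.5-fold higher against 17.1% of all genes. Rpl38 was again first, with 69.1 FPKM in P14 KIT against 7.32 FPKM in P12 KIT, a log2 difference of 3.08. Rps10, a small subunit protein, had 27.7 against 4.79 FPKM, a difference of 2.31, and Rpl39, an X-linked protein that lines the exit tunnel of the large subunit, had 436 against 130 FPKM, a difference of 1.74. Rps27l, a paralog of Rps27 known as a p53 target, had 282 FPKM in P14 KIT against 91.4 FPKM in P12 KIT, a difference of 1.61. The other 10 were the core genes Rpl11, Rpl13, Rpl32, Rpl37a, Rpl41, Rps14, Rps21, Rps24 and Rps27 and the paralog Rpl36al. Rpl11, which also binds the p53 inhibitor MDM2, stood at 6.35 FPKM in P14 KIT against 2.52 FPKM in P12 KIT. The lowest differences among members with 5 FPKM or more in the higher column were -0.37 for Rpl35, -0.14 for Rpl23 and -0.07 for Rps6. The Leydig cell markers summed to 578 FPKM in P14 KIT against 212 FPKM in P12 KIT and the fibroblast markers to 347 against 180 FPKM. The Sertoli cell markers, all 7 of them 2-fold lower, summed to 19.4 against 161 FPKM and the endothelial markers to 5.34 against 35.5 FPKM, and their part was not tested.

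In THY1 cells the members were lower at P12 than at P7 as well, and at P14 their median stayed at the P12 level. In P12 THY1 45 of the 46 abundant core genes were lower than in P7 THY1, where 52.1% of all genes with a mean of 10 FPKM or more were lower, and the median difference of the 85 members was -0.55 on the log2(FPKM + 1) scale against 0.04 over all kept genes. Of 63 members with 5 FPKM or more, 4 were 2-fold lower and 0 were 2-fold higher, where 2.32% and 6.10% of all genes passed, and 30 were 1.5-fold lower against 9.16% of all genes. Rpl13 had 45.4 FPKM in P12 THY1 against 128 FPKM in P7 THY1, Rps2 had 86.8 against 225 FPKM and Rpl30 had 6.38 against 15.4 FPKM. Rpl36 was the other one, with a log2 difference of -1.04. The highest differences among members with 5 FPKM or more in the higher column were 0.26 for Rpl15, -0.04 for Rpl27a and -0.09 for Rpl39l. With P7 VASA THY1 in the place of P7 THY1 the median difference was -0.23. The Sertoli cell markers, 4 of 7 of which were 2-fold higher, summed to 426 FPKM in P12 THY1 against 223 FPKM in P7 THY1, and 5 peritubular myoid markers summed to 251 against 138 FPKM. Red cell markers summed to 0.737 FPKM in P12 THY1 against 86.6 FPKM in P7 THY1. The part of these markers was not tested.

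In P14 THY1, 23 of the 46 abundant core genes were higher and 23 lower than in P12 THY1, where 46.7% and 53.3% of all genes with a mean of 10 FPKM or more were higher and lower. The median difference of the 85 was 0.01 against -0.12 over all kept genes. Of 60 members 5 were 2-fold higher and 0 were 2-fold lower, where 15.9% and 16.6% of all genes passed, and at 1.5-fold 14 were higher and 1 was lower, against 25.1% and 28.9% of all genes. Of the 5, 2 were the testis paralogs Rpl10l and Rpl39l. The other 3 were Rps10, with 24.6 FPKM in P14 THY1 against 5.34 FPKM in P12 THY1, Rpl30, with 21.4 against 6.38 FPKM, and Rpl38, with 60.8 against 23.3 FPKM. The lowest differences among members with 5 FPKM or more in the higher column were -0.61 for Rpl23, -0.46 for Rpl3 and -0.35 for Rps3a. Pachytene markers also separated these columns, at 2909 FPKM in P14 THY1 and 25.8 FPKM in P12 THY1 in sum, as did the Sertoli cell markers, at 13.8 FPKM in P14 THY1 and 426 FPKM in P12 THY1; their part in the differences was not tested.

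Between the selections at one age, members were mostly lower in KIT cells at P7 and P12 and mostly higher at P14. In P7 KIT 37 of the 46 abundant core genes were lower than in P7 THY1, where 46.4% of all genes with a mean of 10 FPKM or more were lower, and the median of the 85 was -0.22 on the log2(FPKM + 1) scale against 0.02 over all kept genes. With P7 VASA THY1 in the place of P7 THY1 that median was 0.11, so its sign depends on which THY1 column is used. In P12 KIT 45 of the 46 were lower than in P12 THY1, where 45.5% of all genes with a mean of 10 FPKM or more were lower, and the median was -0.35 against -0.01. In P14 KIT 36 of the 46 were higher than in P14 THY1, where 59.7% of such genes were higher. The median of the 85 was 0.17 against 0.02 over all kept genes. Over all genes with a mean of 10 FPKM or more, however, the P14 median was 0.16, close to the 0.17 of the 46 abundant core genes. Cell type markers differed in these contrasts too. The Leydig sum was higher in KIT cells at P7, P12 and P14, and the pachytene sum was lower in P14 KIT than in P14 THY1. In P12 KIT against P12 THY1, Sertoli cell markers summed to 161 against 426 FPKM and fibroblast markers to 180 against 439 FPKM. Germ cell markers summed to 2218 against 1312 FPKM there. In P14 KIT against P14 THY1, fibroblast markers summed to 347 against 1326 FPKM. The part of these markers was not tested.

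Few members passed 2-fold in these 3 contrasts. In P7 KIT against P7 THY1, 2 of 64 members were 2-fold lower and 0 were higher, where 2.73% and 2.78% of all genes passed, and at 1.5-fold 9 were lower and 0 higher, against 9.12% and 10.4%. They were Rpl22l1, the paralog of Rpl22, with 65.7 FPKM in P7 KIT against 133 FPKM in P7 THY1, and Rpl35, with 3.39 against 8.85 FPKM; Rps20 followed with 313 against 597 FPKM, a log2 difference of -0.93. The highest differences there, among members with 5 FPKM or more in the higher column, were 0.39 for both Rpl41 and Rpl36 and 0.36 for Rps27l. In P12 KIT against P12 THY1, 3 of 58 members were 2-fold lower and 0 were higher, where 6.51% and 4.66% of all genes passed, and at 1.5-fold 12 were lower and 0 higher, against 16.7% and 14.5%. They were Rpl38, with 7.32 FPKM in P12 KIT against 23.3 FPKM in P12 THY1, the X-linked Rps4x, with 24.2 against 54.2 FPKM, and again Rpl22l1, with 49.0 against 104 FPKM. Rps27l, Rpl30 and Rpl35 were at the upper end among members with 5 FPKM or more in the higher column, with log2 differences of 0.31, 0.27 and 0.04. At P14, 1 of 61 members was 2-fold higher and 2 were 2-fold lower in KIT cells, where 8.58% and 15.7% of all genes passed, and at 1.5-fold 7 were higher and 4 lower, against 24.4% and 23.3%. Rps27l was the higher one, with 282 FPKM in P14 KIT against 127 FPKM in P14 THY1, and Rpl10l and Rpl39l were the lower ones. Among members with 5 FPKM or more in the higher column, Rpl39 and Rps27 came next on the upper side, with log2 differences of 0.87 and 0.84, and Rps4x on the lower side, with -0.80. Rpl22l1 was also lower at P14, with 60.2 FPKM in P14 KIT against 85.6 FPKM in P14 THY1, while Rpl22 stood at 108 against 72.8 FPKM. At 2-fold these counts lie near or below the shares of all genes, and the common direction of the members was carried by smaller differences.

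**Figure D3:**
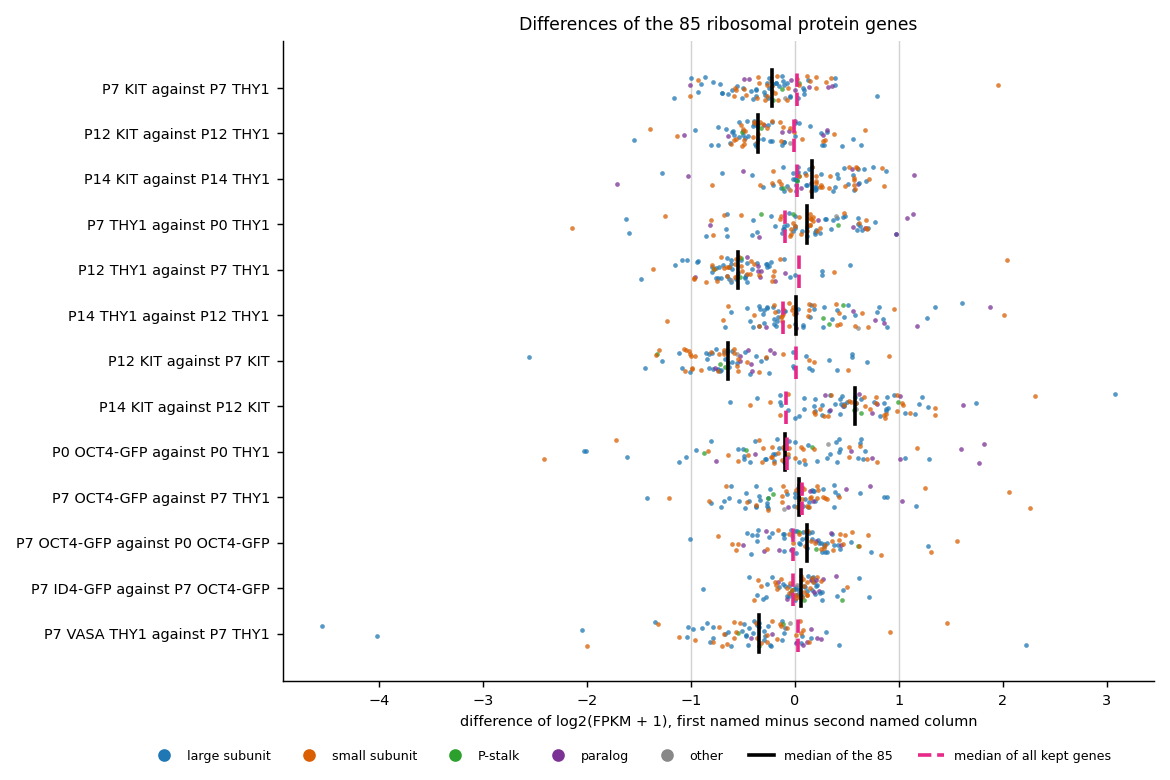
Differences of log2(FPKM + 1) of all 85 genes in the 13 comparisons, first named minus second named column, with the median of the 85 (black bar) and of all kept genes (dashed bar). The 85 are centred at -0.64 in P12 KIT against P7 KIT and at 0.58 in P14 KIT against P12 KIT.

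Of the columns of cells sorted by GFP, P7 ID4-GFP and P7 OCT4-GFP were close in level. P7 ID4-GFP against P7 OCT4-GFP had a median difference of 0.06 over the 85 and of -0.01 over all kept genes. There 0 of 63 members were 2-fold higher or lower, where 0.0218% and 1.67% of all genes passed, and at 1.5-fold 2 were higher and 0 lower, against 0.371% and 3.4%. The 2 were Rpl35, with 12.4 FPKM in P7 ID4-GFP against 7.22 FPKM in P7 OCT4-GFP, and Rpl29, with 37.7 against 24.3 FPKM; the stalk protein Rplp0 followed with 617 against 449 FPKM. The lowest differences among members with 5 FPKM or more in the higher column were -0.44 for Rpl30, -0.39 for Rps4x and -0.35 for Rps25. P7 OCT4-GFP against P0 OCT4-GFP had a median of 0.12 against -0.01, with 37 of the 46 abundant core genes higher, where 50.0% of all genes with a mean of 10 FPKM or more were higher. Of 63 members 2 were 2-fold higher and 1 was 2-fold lower, where 2.49% and 3% of all genes passed, and at 1.5-fold 7 were higher and 2 lower, against 9.06% in each direction. Rps10 had 39.8 FPKM in P7 OCT4-GFP against 12.8 FPKM in P0 OCT4-GFP, Rpl29 had 24.3 against 9.43 FPKM, and Rpl39 had 126 against 254 FPKM. Next to these, among members with 5 FPKM or more in the higher column, were Rps19 at 0.83 on the upper side, and Rps27 and Rps4x at -0.74 and -0.55 on the lower side, all log2 differences. Against P7 THY1, P7 OCT4-GFP had a median of 0.04 against 0.07; with P7 VASA THY1 in the place of P7 THY1 it was 0.41. Of 64 members, 3 were 2-fold higher (Rps10, Rpl38 and Rps4y2) and 2 were 2-fold lower (Rpl39 and Rps6), where 8.88% and 11.8% of all genes passed, and at 1.5-fold 6 were higher and 6 lower, against 24.2% and 20.2%. Rps6, the subunit phosphorylated by S6 kinase, had 2.93 FPKM in P7 OCT4-GFP against 8.08 FPKM in P7 THY1. Rps4x followed with 34.9 against 62.6 FPKM. Macrophage markers summed to 212 FPKM in P0 OCT4-GFP, 147 FPKM in P7 OCT4-GFP, 8.20 FPKM in P7 ID4-GFP and 64.8 FPKM in P7 THY1. Sums of Sertoli, Leydig, fibroblast, peritubular myoid and endothelial markers were lower in P7 OCT4-GFP than in P7 THY1. The part of these markers was not tested.

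At P0 the members divided. In P0 OCT4-GFP 34 of the 46 abundant core genes were lower than in P0 THY1, where 38.6% of all genes with a mean of 10 FPKM or more were lower, and the median of the 85 was -0.10 against -0.07 over all kept genes; with quantile scaling of the columns it was 0.19. Of 63 members 5 were 2-fold higher and 7 were 2-fold lower, where 14.5% and 21.9% of all genes passed, and at 1.5-fold 8 were higher and 13 lower, against 28.7% and 30.5%. The 7 lower ones were all core genes. Rps4x had 51.6 FPKM in P0 OCT4-GFP against 279 FPKM in P0 THY1, Rpl39 had 254 against 1039 FPKM, Rpl15 had 7.43 against 32.8 FPKM and Rps6 had 3.74 against 14.6 FPKM, with Rpl7, Rpl27a and Rpl29 as the others. Of the 5 higher ones 4 were paralogs, Rps4y2, Rpl39l, Rpl10l and Rpl36al, and the other was the core gene Rpl19, with 11.6 against 5.06 FPKM. The summed fibroblast markers stood at 55.6 FPKM in P0 OCT4-GFP and 6728 FPKM in P0 THY1, and the germ cell markers at 1577 and 734 FPKM in the same order; their part in these differences was not tested. P7 THY1 against P0 THY1 shares the P0 THY1 column. There the median of the 85 was 0.11 against -0.09 over all kept genes. Over all genes with a mean of 10 FPKM or more it was 0.17, and over the 46 abundant core genes -0.02. Of 64 members Rpl10l and Rps4y2 were 2-fold higher and Rpl15, Rpl39 and Rps4x 2-fold lower, where 6.34% and 17.2% of all genes passed. At 1.5-fold 9 were higher and 10 lower, against 18.8% and 26.7%. Rpl39l followed with 171 FPKM in P7 THY1 against 86.6 FPKM in P0 THY1. With P7 VASA THY1 in the place of P7 THY1 the median was -0.26.

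The X-linked core genes Rpl39 and Rps4x differed in pattern from their autosomal paralogs. A highest level in P0 THY1 was not particular to X-linked genes. The autosomal Rpl15, Rps6, Rpl27a and Rpl7 were highest there as well, at 32.8, 14.6, 34.1 and 391 FPKM. P0 THY1 also had the highest fibroblast sum, at 6728 FPKM, and the part of these cells was not tested. Rpl39 stood at 1039 FPKM in P0 THY1 and between 126 FPKM, in P7 OCT4-GFP, and 436 FPKM, in P14 KIT, in the other 10 columns. Its paralog Rpl39l was lowest in P0 THY1, at 86.6 FPKM, had a median of 178 FPKM and was highest in P14 THY1, at 363 FPKM. Rpl39l was thus at 0.0833 times Rpl39 in P0 THY1 and at 1.92 times in P7 OCT4-GFP. In P14 KIT it stood at 178 FPKM, against 363 FPKM in P14 THY1, a log2 difference of -1.02, while Rpl39 stood at 436 against 237 FPKM, a difference of 0.87.

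Rps4x, a small subunit protein, stood at 279 FPKM in P0 THY1 and at 24.2 to 62.6 FPKM in the other columns. Rps4y2, on chromosome 6, was lowest in P0 THY1, at 79.8 FPKM, had a median of 208 FPKM and was highest in P7 ID4-GFP, at 418 FPKM. In P7 ID4-GFP it was at 15.9 times Rps4x, in P7 OCT4-GFP at 10.4 times and in P0 THY1 at 0.286 times. P0 THY1 was the only column of the 11 in which the X-linked gene exceeded this paralog. Reads of such near copies can be assigned to either gene, so the split between Rps4x and Rps4y2, and between Rpl39 and Rpl39l, is uncertain. The same may hold for the other paralogs and was not tested. Levels of Rpl10l, Rpl36al and Rps27l beside the low Rpl10, Rpl36a and Rps27 are therefore uncertain too.

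Rpl10, an X-linked large subunit protein placed near the peptidyl transferase centre, was listed at 0.559 to 2.08 FPKM in all columns, whereas Rpl10l, on chromosome 12, ran from 27.7 FPKM in P0 THY1 to 193 FPKM in P14 THY1 with a median of 59.4 FPKM. Rpl10l is known in mouse for replacing Rpl10 in meiotic cells. In P14 KIT it stood at 58.2 FPKM, against 193 FPKM in P14 THY1, a log2 difference of -1.71, and in P12 THY1 at 51.8 FPKM. P14 THY1 is also the column with the high pachytene sum, 2909 FPKM against at most 86.4 FPKM elsewhere. The next highest Rpl10l levels, however, were 116 FPKM in P7 ID4-GFP and 98.9 FPKM in P7 OCT4-GFP. The pachytene sum stood at 11.8 and 12.6 FPKM in these columns. The part of pachytene cells in the Rpl10l levels was not tested. Rpl36a, the fourth X-linked core gene, stayed at 0 to 0.931 FPKM, and its paralog Rpl36al, on chromosome 12, at 26.4 to 67.8 FPKM. The low listed values of Rpl10 and Rpl36a, in columns from many cell types, belong to the low core genes whose levels are uncertain.

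The other 4 paralogs have an autosomal parent. Rpl22l1 ran from 49.0 FPKM in P12 KIT to 169 FPKM in P0 THY1 and was at 0.557 times Rpl22 in P14 KIT and at 1.71 times in P7 OCT4-GFP. Rps27l ran from 73.7 FPKM in P12 THY1 to 282 FPKM in P14 KIT, with the next highest column, P14 THY1, at 127 FPKM, while Rps27 stayed at 1.91 to 7.41 FPKM. Rpl7l1, a paralog of Rpl7 known in assembly of the large subunit, was steady at 31.6 to 58.2 FPKM. Rpl3l, known as the form of striated muscle, stayed low at 0.887 to 3.58 FPKM. All 8 paralogs together made up 2.73% of the summed level of the 85 in P0 THY1, the lowest share, and 7.80% in P14 THY1, the highest.

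**Figure D4:**
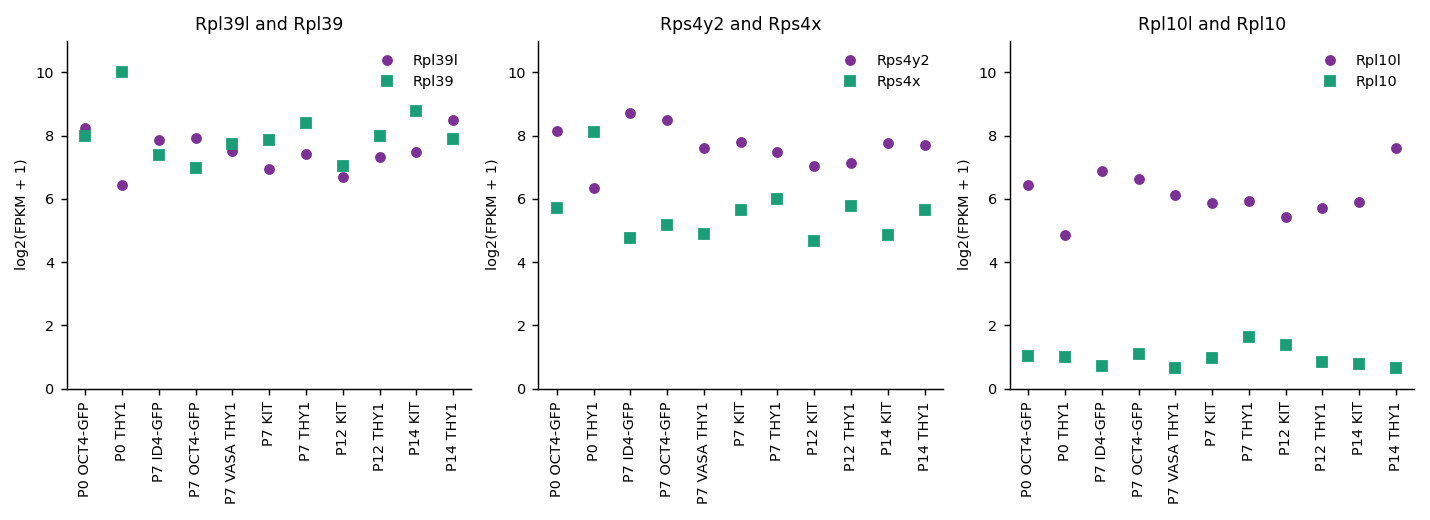
Levels of Rpl39l and Rpl39, Rps4y2 and Rps4x, and Rpl10l and Rpl10 in the 11 columns, on the log2(FPKM + 1) axis; circles are the autosomal paralogs and squares the X-linked genes. P0 THY1 has the highest Rpl39 and Rps4x and the lowest level of all 3 paralogs, and P14 THY1 the highest Rpl10l and Rpl39l.

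A few core genes stood apart in a single column, at least 2-fold beyond all 10 others. Rpl3, a protein of the peptidyl transferase centre, was at 0.714 FPKM in P7 VASA THY1 and at 19.2 to 51.0 FPKM in the other columns. Rpl29 was at 0.381 FPKM in P7 VASA THY1 and at 9.43 to 37.7 FPKM elsewhere, and Rpl30 at 2.95 FPKM against 6.38 to 21.4 FPKM. These were 3 of the 54 members high enough elsewhere to be compared in this way, where 6 of 7117 genes, or 0.0843%, stood that far below in this column. Its germ cell marker sum, 1264 FPKM, lay within the range of the other columns, and what goes with the low values of these 3 genes was not tested.

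Other members were lower in P7 VASA THY1 too when set against P7 THY1. The median of the 85 was -0.34 against 0.03 over all kept genes, and of 63 members 8 were 2-fold lower and 1 was 2-fold higher, where 10.3% and 7.66% of all genes passed, and at 1.5-fold 21 were lower and 1 was higher, against 19.3% and 21.1%. Besides Rpl3, Rpl29 and Rpl30 the lower ones were Rpl34, with 290 FPKM in P7 VASA THY1 against 737 FPKM in P7 THY1, Rps2, with 55.5 against 225 FPKM, Rps18, with 76.0 against 191 FPKM, Rpl35a, with 85.2 against 175 FPKM, and Rps4x, with 28.4 against 62.6 FPKM. Rps10 was the higher one, with 22.5 against 7.52 FPKM, followed among members with 5 FPKM or more in the higher column by Rpl38 and Rpl11 with log2 differences of 0.42 and 0.30. Other abundant genes were closer in the same columns, such as Rps15, with 671 FPKM in P7 VASA THY1 and 709 FPKM in P7 THY1. Most lists of somatic markers were lower in P7 VASA THY1 as well. Leydig cell markers summed to 8.09 FPKM in P7 VASA THY1 against 109 FPKM in P7 THY1, endothelial markers to 6.16 against 83.7 FPKM, 6 macrophage markers to 3.65 against 64.8 FPKM, peritubular myoid markers to 31.0 against 138 FPKM and fibroblast markers to 143 against 302 FPKM. Sertoli cell markers summed to 280 against 223 FPKM, and the part of these markers was not tested.

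In other columns, 5 members stood apart. Rpl38 was at 7.32 FPKM in P12 KIT, with the next lowest column, P12 THY1, at 23.3 FPKM and the highest, P7 ID4-GFP, at 119 FPKM, and it was the 1 gene of 7103 that stood 2-fold below in P12 KIT. Rpl15, Rpl39 and Rps4x stood above in P0 THY1, where 7.12% of 12269 genes did. Rps27l stood above in P14 KIT, where 0.326% of 12269 genes did. Rps10 had no single column apart, but stood at 44.7 and 39.8 FPKM in P7 ID4-GFP and P7 OCT4-GFP, 22.5 to 27.7 FPKM in the P14 columns and P7 VASA THY1, and 4.79 to 13.9 FPKM in the remaining 6 columns. Rplp2, at 245 FPKM in P12 KIT to 439 FPKM in P7 THY1, was the steadiest abundant core gene, with an SD of log2(FPKM + 1) over the 11 columns of 0.23, and Rpl22 followed with 0.26.

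**Figure D5:**
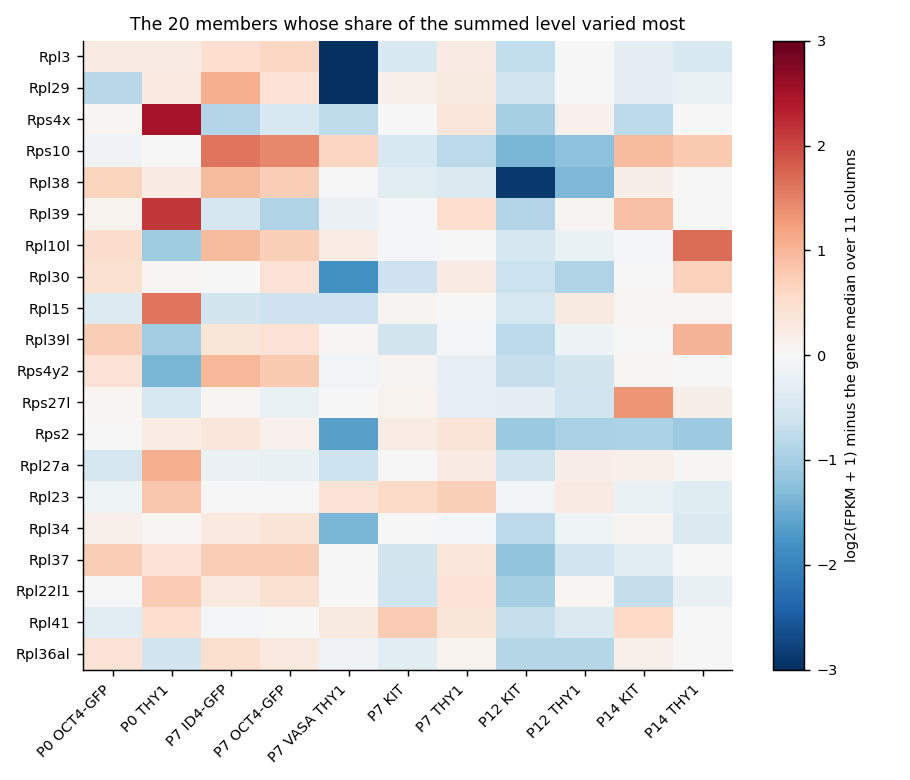
The 20 members with a mean of 10 FPKM or more whose share of the summed level varied most; colour is log2(FPKM + 1) in a column minus the gene's median over 11 columns, cut at -3 and 3. Rpl3 and Rpl29 are dark blue in P7 VASA THY1, Rpl38 is dark blue in P12 KIT, and Rps4x and Rpl39 are red in P0 THY1.

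Promoters were examined because the abundant members moved together. RefSeq promoters on GRCm38.p6, from 250 bases before to 50 bases after the annotated start, were present for 56 of the 76 core genes. The 5 below were picked to show both motifs and an X-linked pair, and each runs from 60 bases before to 30 bases after the start. Capitals mark a run of at least 7 C or T letters that touches the 10 bases on either side of the start. A TOP messenger RNA begins with its run, and whether a run found here does so was not tested. The run of Rpl39l ends before the annotated start and that of Rpl39 begins after it, so a run is not a TOP motif by itself. Capitals also mark the ETS factor motif CGGAAG and its reverse complement CTTCCG, searched on both strands.
Rplp2: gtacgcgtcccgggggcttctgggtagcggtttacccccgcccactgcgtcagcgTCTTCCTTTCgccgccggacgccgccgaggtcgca
Rps18: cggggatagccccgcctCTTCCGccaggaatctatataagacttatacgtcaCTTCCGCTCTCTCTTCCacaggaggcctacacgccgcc
Rpl14: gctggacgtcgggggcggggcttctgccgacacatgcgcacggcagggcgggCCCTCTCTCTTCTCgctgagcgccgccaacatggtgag
Rpl39: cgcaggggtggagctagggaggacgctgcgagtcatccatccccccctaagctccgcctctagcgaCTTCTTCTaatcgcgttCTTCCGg
Rpl39l: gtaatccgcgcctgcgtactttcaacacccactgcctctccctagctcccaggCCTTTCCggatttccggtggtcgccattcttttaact
Rplp2 lies at chr7:141447591-141447680 on the plus strand, Rps18 at chr17:33955636-33955725 on the minus strand, Rpl14 at chr9:120571457-120571546 on the plus strand, Rpl39 at chrX:37085193-37085282 on the minus strand and Rpl39l at chr16:10170168-10170257 on the plus strand.

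The run was longest in Rpl14 among these 5, at 14 letters, and shortest in Rpl39l, at 7. It was found in 31 of the 56 core promoters, or 55.4%, and in 22.5% of the 27025 genes of the promoter table. The motif CGGAAG or CTTCCG was found in 39 of the 56, or 69.6%, and in 18.8% of all genes. Promoters of the mitochondrial ribosomal proteins, which are not TOP genes, held the run in 17.9% and the motif in 55.2% of 67 genes. Among abundant core genes, the 22 with a run had a median difference of -0.80 in P12 KIT against P7 KIT and the 12 without one had -0.67; in P14 KIT against P12 KIT the medians were 0.80 and 0.72 in the same order. In P12 THY1 against P7 THY1 the order was the other way round, with -0.55 for genes with a run and -0.65 for those without. A match is a description of these letters and not of a binding site, and a window without one says nothing of the factor.

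Other genes of translation were described beside the 85 by lists that were chosen with earlier results of these data known. Gnb2l1, which encodes the ribosome-bound scaffold RACK1, had 467 FPKM in P12 KIT against 805 FPKM in P7 KIT. Of 15 translation factors and other products of TOP messenger RNAs, 6 were 1.5-fold lower in P12 KIT than in P7 KIT and 0 were higher, with a median of -0.48, where 13.6% and 15.9% of all genes were. Eef1a1, the elongation factor that brings in aminoacyl-tRNA, had 820 against 1185 FPKM, and Eef2, which drives translocation, 604 against 818 FPKM. In P14 KIT against P12 KIT, however, 0 of these 15 were 1.5-fold higher and 1 was 1.5-fold lower, with a median of 0.17 beside 0.58 for the 85, where 17.1% and 21.5% of all genes were. Eef1a1 stood at 741 FPKM in P14 KIT against 820 FPKM in P12 KIT, and Eef2 at 515 against 604 FPKM.

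Genes that build ribosomes differed less in their medians between P12 KIT and P7 KIT than the 85, a difference between lists that was not tested. Of 25 ribosome assembly and rRNA processing genes, 1 was 1.5-fold lower and 0 were higher in P12 KIT against P7 KIT. The shares of all genes were 13.6% and 15.9%. The median of the 25 was -0.07, and for 9 genes of the RNA polymerase I machinery it was -0.14. In P12 THY1 against P7 THY1, 5 of the 25 assembly genes were 1.5-fold lower and 0 higher, against 9.16% and 15.1% of all genes, with a median of -0.32, and the polymerase I genes had a median of -0.20. In P0 OCT4-GFP against P0 THY1 the assembly genes had a median of 0.90, with 22 of 25 genes 1.5-fold higher and 0 lower, against 28.7% and 30.5% of all genes, and the polymerase I genes one of 0.98, while the 85 had -0.10. Mitochondrial ribosomal proteins, which serve the separate ribosome of mitochondria, had a median of -0.45 in P12 KIT against P7 KIT. Of the 75 kept genes of this list, 22 were 1.5-fold lower and 0 higher, against 13.6% and 15.9% of all genes. In P14 KIT against P12 KIT their median was 0.74. There 51 of the 75 were 1.5-fold higher and 0 lower, against 17.1% and 21.5% of all genes. Subunits of oxidative phosphorylation, a list added after the data were seen, had medians of -0.55 and 0.92 in the same 2 comparisons, so low values in P12 KIT were found in these nuclear-encoded mitochondrial genes too. Of 13 regulators, 5 were 1.5-fold higher and 3 were 1.5-fold lower in P12 KIT against P7 KIT, where 15.9% and 13.6% of all genes were. The median of the 13 was 0.07. Among them, Myc, a transcription factor that drives ribosome production, had 6.8 FPKM in P12 KIT against 12.5 FPKM in P7 KIT. Myc was lower still in P14 KIT, at 2.04 FPKM, and stood at 0.121 FPKM in P7 ID4-GFP. Its relative Mycn had 14.0 FPKM in P12 KIT against 20.8 FPKM in P7 KIT, and 37.1 FPKM in P7 ID4-GFP. Mycl1 had 8.20 FPKM in P12 KIT against 12.3 FPKM in P7 KIT, and 13.8 FPKM in P7 ID4-GFP. Rps6kb1, the S6 kinase, had 31.6 FPKM in P12 KIT against 17.8 FPKM in P7 KIT. The part of these regulators in the differences of the 85 was not tested.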

How the data were processed

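RNA was sequenced from 16 libraries of the 30 samples of the series; the 8 bisulfite and 6 chromatin immunoprecipitation or input samples were not analysed here. Ribosomal RNA had been removed from total RNA before directional library preparation, per the labels' protocols. The submitters' processing notes name CASAVA, TopHat2 2.0.9, Cufflinks 2.1.1 and the build mm9; the annotation, the treatment of reads with several places and the way 2 libraries became 1 column are not given in the sources used here. FPKM values were deposited by the authors, 1 per group, for 20889 symbols in 11 columns. Read depth is not in the file; steps between values under 0.05 FPKM put 1 fragment at 0.957 to 3.72 times that in P14 THY1, the largest being P7 THY1, where 14.8% of 237 genes gave it.

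Differences of log2(FPKM + 1) were computed with Python 3.11.15, numpy 2.4.6 and pandas 2.3.3, and plots with matplotlib 3.10.9. The calculation was tested on simulated data. Named in the text are the paralog pairs, the stalk genes, members past 2-fold, the 3 largest differences each way, the 5 highest and 5 lowest in median and the 5 most variable in share; Rps15, Rps3, Rps19 and Rpl11 were named after their values were seen. A few genes are not reported here. The members and lists were chosen with earlier results of these data known. Alternatives were pseudocount 0.1, quantile and median scaling, no floor or a floor in both columns, core genes only, 1.5-fold, P7 VASA THY1 for P7 THY1, and totals without the highest rows. Reference tables are of GRCm38.p6 and were used for names, chromosomes and promoters only, never with mm9 coordinates.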

Additional observations from a re-analysis of the deposited data

Results flagged for a closer look

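In 4 results the same contrast ran in opposite directions in different groups; each group is 1 column, so the differences were not tested. Rpl39 had 130 FPKM in P12 KIT against 253 FPKM in P12 THY1, a log2 difference of -0.96, and 436 FPKM in P14 KIT against 237 FPKM in P14 THY1, a difference of 0.87; the P12 minus the P14 difference was -1.84. The summed level of the 85 genes was 8952 FPKM in P12 KIT against 12112 FPKM in P12 THY1, a log2 ratio of -0.44, and 15368 FPKM in P14 KIT against 13638 FPKM in P14 THY1, a log2 ratio of 0.17; these differ by -0.61. Rps10 had 39.8 FPKM in P7 OCT4-GFP against 12.8 FPKM in P0 OCT4-GFP, a log2 difference of 1.56, and 7.52 FPKM in P7 THY1 against 13.9 FPKM in P0 THY1, a difference of -0.81; these differ by 2.37. The summed level was 18850 FPKM in P7 OCT4-GFP against 15857 FPKM in P0 OCT4-GFP, a log2 ratio of 0.25, and 18310 FPKM in P7 THY1 against 18768 FPKM in P0 THY1, a log2 ratio of -0.04; these differ by 0.29.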

How the results depend on the processing

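No paired analysis was possible because the table holds 1 value per group and no column carries a replicate number; for the same reason no library could be left out. Under the alternatives 77 medians of 82 moved by less than 0.2 on the log2 scale and 5 moved by more. In 9 of the 82 the sign changed, and in 6 of these 9 the move was under 0.2. With P7 VASA THY1 in place of P7 THY1, the median was 0.11 for P7 KIT, -0.26 for P7 against P0, -0.23 for P12 against P7 and 0.41 for P7 OCT4-GFP, so the first 2 changed sign from -0.22 and 0.11. Quantile scaling turned the -0.10 of P0 OCT4-GFP against P0 THY1 to 0.19. The other 6 sign changes were in medians near 0. P7 against P0 THY1 had -0.01 with 5 FPKM or more in both columns and -0.02 over abundant core genes. P14 against P12 THY1 had -0.11 with quantile scaling and -0.01 over core genes, and P7 OCT4-GFP against P7 THY1 had -0.06 with quantile and -0.02 with median scaling. At 1.5-fold the counts were, for KIT against THY1, 9 at P7, 12 at P12 and 11 at P14; for THY1 cells over age, 19 from P0 to P7, 30 from P7 to P12 and 15 from P12 to P14; for KIT cells, 41 from P7 to P12 and 39 from P12 to P14; for OCT4-GFP against THY1, 21 at P0 and 12 at P7; 9 from P0 to P7 OCT4-GFP, 2 for ID4-GFP against OCT4-GFP and 22 for P7 VASA THY1 against P7 THY1. For P7 KIT against P7 THY1, 2-fold counts were 1 with quantile scaling, 4 with no floor, 1 with core genes only and 7 with P7 VASA THY1. Core genes only gave 0 for P14 KIT against P14 THY1, 3 for P7 against P0 THY1 and 3 for P14 against P12 THY1. For P7 against P0 THY1, quantile scaling gave 8 and P7 VASA THY1 18. For P12 against P7 THY1, quantile scaling gave 8 and median scaling 7. All these counts take both directions together. Shares of all genes at 1.5-fold are given with the comparisons above. With quantile or median scaling, with no floor or with P7 VASA THY1, the share of all genes was not counted. Those counts therefore cannot be read as particular to the members. Shares of the total without the highest rows were 5.17% in P7 OCT4-GFP, 4.67% in P7 KIT, 5.27% in P7 THY1, 2.73% in P12 KIT, 3.65% in P12 THY1, 4.26% in P14 KIT and 3.75% in P14 THY1; without Rmrp they were 4.87%, 4.43%, 4.97%, 2.54%, 3.43% and 3.73% in the first 6 of these. The cause of these shifts was not tested. The largest median difference over all kept genes was 0.12 as deposited, 0.17 after quantile and 0.10 after median scaling. Depth is unknown, so no interval can be given for low values.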
